A study of Saccharomyces cerevisiae with 9 samples.

Results

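NBRC2018 and NBRC1958 are Saccharomyces cerevisiae strains, and their transcript levels were compared on 6 of the 9 single-colour arrays of a study of succinic acid stress. Each strain was grown at 0, 20 and 60 g/L of added succinic acid, with 1 array for each strain and dose, so the strains were compared dose by dose over 3 pairs of arrays. The members of the comparison were all arrays that the labels give to these strains. The remaining 3 arrays held strain KF7 at the same doses and entered the fit only to estimate the spread, except where its values are given. All cultures were grown in YPD, a rich glucose medium, at 35 °C and 200 rpm for 6 hours. The labels describe no engineered allele in any strain. Nothing in them ties an array to a culture of its own. The p-values measure only the spread between these arrays that is left after strain and dose are fitted. That spread mixes variation between arrays, which may be technical, with strain differences that change with dose.

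A stress response shared by many insults is well described in budding yeast. Transcription factors Msn2 and Msn4 turn on chaperones, antioxidant enzymes and storage carbohydrate genes, while ribosomal protein and ribosome assembly genes are turned down, and fast growth on glucose is marked by the opposite state. Wild and industrial strains are also known to differ in flocculin genes, in gene families near chromosome ends and in nutrient regulons. Tolerance of weak organic acids is known to involve the transcription factor Haa1, the plasma membrane proton pump and exporters of acid anions.

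Values are the authors' linear signals, 1 per probe set and array. Median signals over 5449 genes ran from 294 to 311 on the 9 arrays, and 96.7% to 97.5% of genes on each array lay above the background, taken as the 95th percentile of probe sets for another organism (14.7 to 15.9). Differences are log2(signal + 16) in NBRC2018 minus NBRC1958 with the standard error (SE) of the limma fit, so a difference of 1 is a doubling of signal plus offset, and folds of low genes are understated. Genes were ranked by the mean of log2(signal + 16) over the 9 arrays, and the 4359 genes whose mean corresponded to a signal over 118 were tested, and an adjusted p below 0.05 was the threshold. Each array read a whole culture, so a lower signal in all cells and a smaller share of cells with the transcript cannot be told apart. The probe sets follow the annotation of a reference strain. A mismatch between a strain's sequence and a probe lowers its signal as fewer transcripts would, and the part of such mismatches in the differences was not tested. Of 14 genes past the test with several probe sets, 12 had probe sets of 1 sign, the exceptions being PAU23 and YPL277C.

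The strains differed at 1214 of the 4359 genes tested (27.9%). NBRC2018 was higher at 711 genes (16.3%) and lower at 503 (11.5%). Most differences were small, with a median absolute log2 difference of 0.50 over the genes past the test, and the median signed difference over all genes tested was 0.06. Differences of at least 2-fold were mostly towards lower signals in NBRC2018, since 97 genes (2.23%) were at least 2-fold lower and 27 (0.619%) at least 2-fold higher. At 4-fold or more, 21 genes were lower and 1, PHO3, was higher. Of the 1214 genes, 1212 had the same sign at all 3 doses, and for 931 the 3 signals of the strains did not overlap. Over all genes tested, the groups did not overlap for 21.4% in the direction of NBRC2018 and for 13.1% in the direction of NBRC1958. The counts depended on single arrays and on the dose term. When the array of NBRC1958 at 0 or at 20 g/L was left out, 406 and 395 genes passed. When that of NBRC2018 at 0, 20 or 60 g/L was left out, 432, 718 and 625 passed. With no dose term in the model the count was 406.

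**Figure D1:**
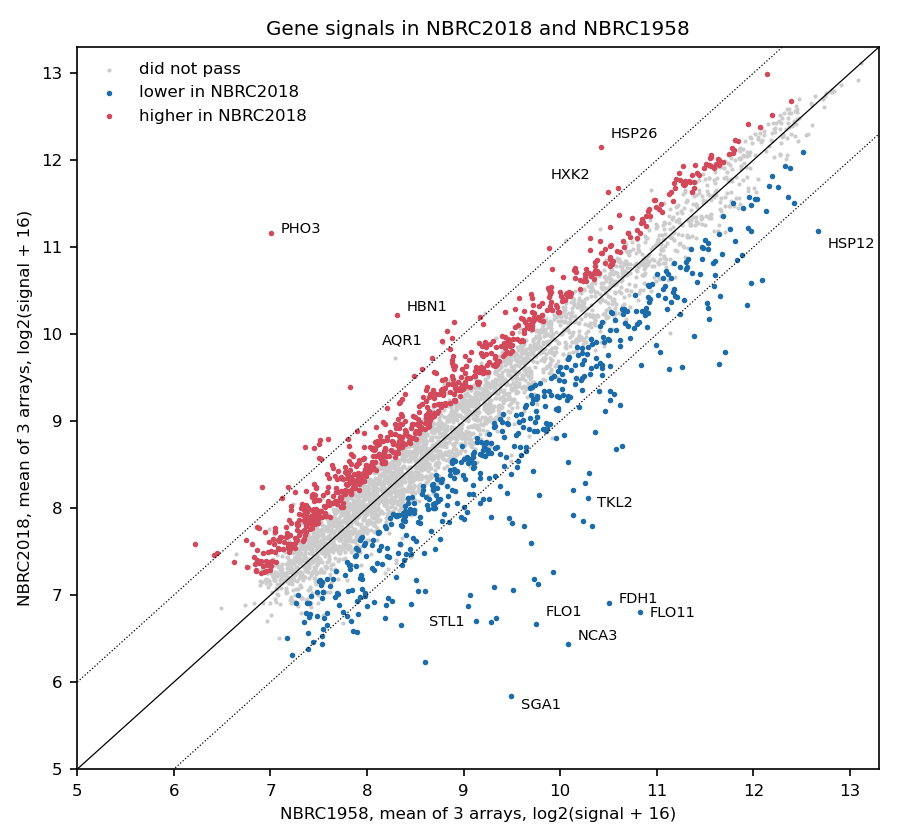
Mean log2(signal + 16) of the 4359 tested genes in NBRC1958 (horizontal axis) and NBRC2018 (vertical axis), 3 arrays each; red and blue points passed the test, the solid line marks equal signals and the dotted lines a 2-fold difference. The 97 genes at least 2-fold lower in NBRC2018 spread far below the diagonal, with FLO11, SGA1, NCA3 and FDH1 at its outer edge, while PHO3 stands alone above it.

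The lowest differences of all tested genes were those of FLO11, SGA1, NCA3 and FDH1. FLO11, which encodes the mucin-like flocculin of invasive and biofilm growth, had signals of 2387, 2390 and 1017 in NBRC1958 at 0, 20 and 60 g/L and of 83.5, 84.3 and 123 in NBRC2018. The groups lay far apart at every dose, with a difference of -4.02 (SE 0.33, adjusted p = 0.000829). SGA1, the intracellular glucoamylase of sporulating cells, read 668, 759 and 692 in NBRC1958 against 28.3, 27.5 and 81.0 in NBRC2018, a difference of -3.66 (SE 0.31, adjusted p = 0.000829). Both genes lie on chromosome IX. As background, the STA glucoamylase genes of amylolytic yeasts join sequences of FLO11 and SGA1, and whether either strain carries such a gene was not tested. NCA3, a member of the SUN family of cell wall proteins, read 1180, 1074 and 956 in NBRC1958 against 64.2, 54.3 and 99.3 in NBRC2018 (difference -3.64, SE 0.17, adjusted p = 0.000117).

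FLO1, the flocculin that binds neighbouring cells to each other, read 1100, 993 and 548 in NBRC1958 and 114, 159 and 29.6 in NBRC2018. Its difference was -3.08 (SE 0.38, adjusted p = 0.00265), with every NBRC2018 signal below every NBRC1958 signal. Of the 5 flocculation and adhesion genes tested, 4 were lower in NBRC2018 (80%, against 11.5% of all genes tested) and none higher. The median difference was -0.93 against 0.06 over all genes. The other two were PHD1, a regulator of filamentous growth, at -0.93 (SE 0.12, adjusted p = 0.00291), and FLO9 at -0.56 (SE 0.14, adjusted p = 0.0235). The FLO9 probe set is shared with related sequences, and FLO9 did not pass when any of 5 of the 6 arrays of these strains was left out, all but the NBRC1958 array at 60 g/L. In strain KF7 the FLO11 signals were 255, 267 and 354, between those of the strains compared.

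**Figure D2:**
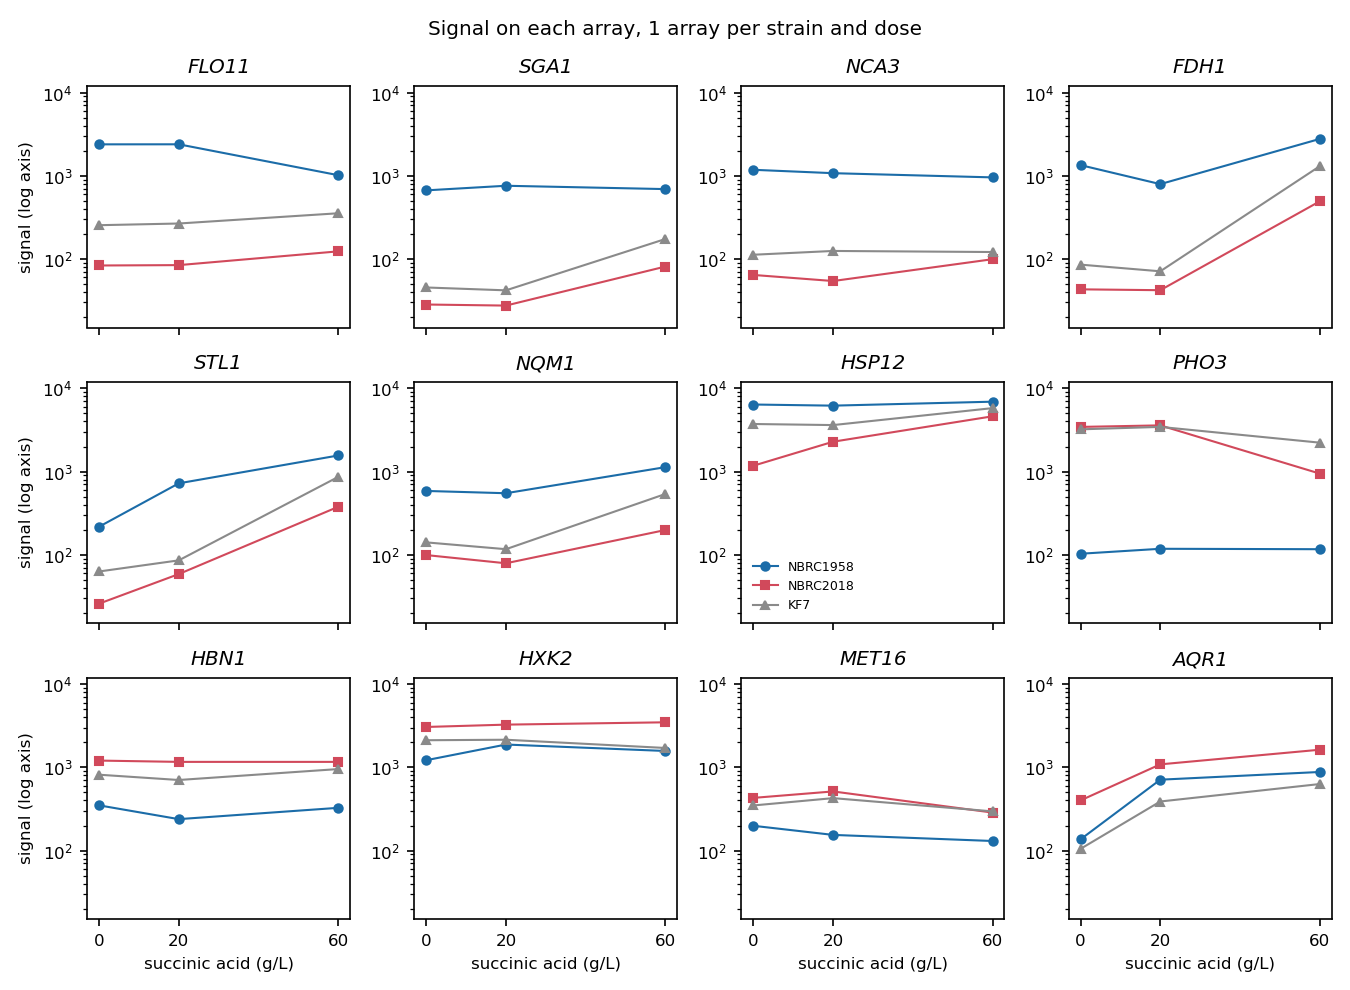
Signal (log axis) of 12 genes against succinic acid (g/L), 1 array per point, with a line for each of the strains NBRC1958, NBRC2018 and KF7. The upper row and the first genes of the middle row show genes lower in NBRC2018 at every dose, from FLO11 at 83.5 to 123 against 1017 to 2390, and the remaining panels from PHO3 onward show genes higher in it.

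The mannoprotein genes of the DAN, TIR and PAU families encode cell wall proteins known for expression under low oxygen, in the cold and in fermentation, and the list holds regulators of the same response. Of 16 tested members 12 were lower in NBRC2018 (75%, against 11.5% of all genes tested) and 2 higher (12.5%, against 16.3%). The median difference was -0.71. TIR2 read 2859, 1298 and 362 in NBRC1958 and 386, 207 and 145 in NBRC2018 at 0, 20 and 60 g/L. Its signals were lower at higher doses in both strains, so the groups overlapped, but NBRC2018 was lower at each dose (difference -2.21, SE 0.27, adjusted p = 0.00266). TIR3 differed by -1.20 (SE 0.20, adjusted p = 0.00699), and ANB1, a translation factor gene used under low oxygen, by -1.28 (SE 0.22, adjusted p = 0.00707). The 2 higher members were PAU9 at 0.94 (SE 0.10, adjusted p = 0.00201), read by a shared probe set, and PAU23 at 0.55 (SE 0.13, adjusted p = 0.0206), whose own probe sets disagreed in sign. PAU23 lost the call when NBRC1958 at 0 g/L or NBRC2018 at 0 or 20 g/L was left out. The count of 12 dropped to 5 when NBRC1958 at 0 g/L or NBRC2018 at 20 g/L was left out, to 6 for NBRC2018 at 0 g/L, and to 7 for NBRC1958 at 20 g/L or NBRC2018 at 60 g/L. It was 3 with no dose term and 6 with a filter of the lowest 50% of genes.

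The general stress response was lower in NBRC2018. Of 39 tested genes of this list 25 were lower (64.1%, against 11.5% of all genes tested) and 2 were higher (5.1%, against 16.3%). The other 12 did not pass, and the median difference was -0.57. NQM1, a transaldolase of resting cells, read 585, 549 and 1130 in NBRC1958 and 99.1, 79.0 and 198 in NBRC2018 (difference -2.46, SE 0.20, adjusted p = 0.000829). TKL2, the minor transketolase, read 829, 1064 and 2115 against 175, 233 and 433 (difference -2.17, SE 0.30, adjusted p = 0.00393). Every NBRC2018 signal of these genes was below every NBRC1958 signal. SIP18, a protectant of dried cells, differed by -2.06 (SE 0.29, adjusted p = 0.00419), and CTT1, the cytosolic catalase, by -1.60 (SE 0.26, adjusted p = 0.00604). The catalase signals were 3255 to 4274 in NBRC1958 and 781 to 1779 in NBRC2018.

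HSP12, a small membrane-stabilizing heat shock protein, read 6397, 6200 and 6919 in NBRC1958 and 1176, 2285 and 4617 in NBRC2018, so the gap was widest without acid (difference -1.48, SE 0.29, adjusted p = 0.0114). The call was lost when NBRC1958 at 0 or at 20 g/L was left out (adjusted p = 0.0557 and 0.0506). The members that were higher were HSP26, a small heat shock chaperone, and ALD3, a cytosolic aldehyde dehydrogenase. HSP26 read 1576, 670 and 2342 in NBRC1958 and 5954, 5976 and 2603 in NBRC2018 (difference 1.73, SE 0.48, adjusted p = 0.033), and it lost the call when either strain at 0 or at 20 g/L was left out (adjusted p = 0.0976 to 0.136). ALD3 differed by 1.38 (SE 0.24, adjusted p = 0.00761). Over the general stress list, 12 genes were lower when NBRC1958 at 0 or at 20 g/L was left out, 14 when NBRC2018 at 0 or at 60 g/L was, and 9 with no dose term in the model.

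Trehalose and glycogen are the storage carbohydrates that yeast builds up under stress and at the end of growth on glucose. Of the 20 tested genes of their synthesis and breakdown, 10 were lower in NBRC2018 (50%, against 11.5% of all genes tested). Another 1 was higher (5%, against 16.3%), and the median was -0.41. GPH1, glycogen phosphorylase, read 3531, 3118 and 2310 in NBRC1958 and 1075, 1362 and 1317 in NBRC2018 (difference -1.23, SE 0.18, adjusted p = 0.00446). GDB1, the glycogen debranching enzyme, differed by -1.24 (SE 0.18, adjusted p = 0.00448), and GAC1, a subunit that directs a phosphatase to glycogen synthase, by -1.09 (SE 0.16, adjusted p = 0.00509). The higher gene was PGM1, a phosphoglucomutase, at 0.61 (SE 0.09, adjusted p = 0.0044). Leaving out either strain at 0 g/L, or NBRC1958 at 20 g/L, left 5 lower genes in this list, and leaving out NBRC2018 at 60 g/L, or the dose term, left 6.

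Heat shock factor drives the genes of protein folding. Of 29 tested targets 15 were lower in NBRC2018 (51.7%, against 11.5% of all genes tested). The 2 that were higher (6.9%, against 16.3%) were HSP26 and MGE1, a mitochondrial co-chaperone. The median was -0.39. APJ1, a J-domain co-chaperone, read 570, 811 and 3781 in NBRC1958 and 137, 164 and 1086 in NBRC2018 (difference -1.98, SE 0.16, adjusted p = 0.000829). Its signal was highest at 60 g/L in both strains, which makes the ranges overlap, and NBRC2018 was lower at each dose. HSP78, the mitochondrial disaggregase, differed by -1.40 (SE 0.17, adjusted p = 0.00265), and HSP104, its cytosolic relative, by -0.93 (SE 0.12, adjusted p = 0.00325). BTN2, which sorts aggregated proteins, read 1547, 2962 and 8000 against 306, 438 and 4740 (difference -1.91, SE 0.37, adjusted p = 0.011), and lost the call when either strain at 0 g/L was left out (adjusted p = 0.057 and 0.0516). MGE1 differed by 0.43 (SE 0.10, adjusted p = 0.0191) and did not pass when any of 5 of the 6 arrays was left out, all but the NBRC1958 array at 60 g/L. For the whole list the number lower was 6 or 7 when NBRC1958 at 0 or 20 g/L or NBRC2018 at 0 or 60 g/L was left out, and 0 with no dose term in the model.

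Most genes of respiration and of growth on poor carbon had negative differences, but most did not pass the test. PCK1, the gluconeogenic phosphoenolpyruvate carboxykinase, read 408, 714 and 1589 in NBRC1958 and 65.3, 154 and 776 in NBRC2018 (difference -1.83, SE 0.25, adjusted p = 0.004). All 8 glyoxylate cycle and gluconeogenesis genes that were tested had a negative difference, with a median of -0.90. Of these, 2 were lower past the test (25%, against 11.5% of all genes tested). The other one past the test was ADR1, an activator of alcohol and fatty acid use, at -0.88 (SE 0.23, adjusted p = 0.0287). ADR1 lost the call when any of 5 of the 6 arrays was left out, all but NBRC2018 at 20 g/L. CYC7, the cytochrome c isoform of low oxygen and stress, read 2975, 2791 and 3946 against 880, 1456 and 2012 (difference -1.21, SE 0.21, adjusted p = 0.00761). Of 34 respiratory chain and ATP synthase genes 5 were lower, none was higher and 29 did not pass, and 14.7% lower is near the 11.5% of all genes tested. Of 15 citric acid cycle genes 4 were lower (26.7%, against 11.5% of all genes tested) and none higher, and 14 had a negative sign. Leaving out either strain at 0 g/L or NBRC1958 at 20 g/L left 2 of the respiratory genes and none of the citric acid cycle genes. Leaving out NBRC2018 at 20 g/L left 3 and 1, whereas leaving out NBRC1958 at 60 g/L gave 11 and 7. With no dose term 3 and 1 passed.

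Succinate dehydrogenase oxidizes succinate to fumarate in the mitochondrion. Of the 8 tested genes for its subunits, assembly factors and relatives, 4 were lower in NBRC2018 (50%, against 11.5% of all genes tested). None was higher, and the median was -0.32. SDH3, a membrane anchor, read 2171, 2021 and 2276 in NBRC1958 and 1183, 1212 and 1721 in NBRC2018 (difference -0.67, SE 0.12, adjusted p = 0.00847). SDH1, the flavoprotein, read 1602, 1296 and 1176 against 677, 812 and 919 (difference -0.75, SE 0.18, adjusted p = 0.0205). The strains did not overlap for either gene. SDH1 lost the call when NBRC1958 at 0 or at 20 g/L was left out (adjusted p = 0.096 and 0.0802). SDH2, the iron-sulfur subunit, at -0.47 (SE 0.14, adjusted p = 0.0403), and the assembly factor SDH7, at -0.44 (SE 0.12, adjusted p = 0.0306), each lost the call when any of 4 arrays was left out. For SDH2 these were the arrays of both strains at 0 g/L, the NBRC1958 array at 20 g/L and the NBRC2018 array at 60 g/L. For SDH7 they were the arrays of both strains at 0 and 20 g/L. Of the list, 1 gene passed when NBRC1958 at 0 or at 20 g/L was left out, and 2 when NBRC2018 at 0 g/L or the dose term was. JEN1, the carboxylate importer, read 471, 429 and 583 in NBRC1958 and 171, 309 and 565 in NBRC2018 and did not pass (difference -0.63, SE 0.56, adjusted p = 0.414).

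A hexokinase gene and a hexose transporter gene were higher in NBRC2018. HXK2, the hexokinase that predominates on glucose and takes part in glucose repression, read 1219, 1881 and 1574 in NBRC1958 and 3059, 3263 and 3480 in NBRC2018 (difference 1.08, SE 0.15, adjusted p = 0.00393). HXT3, a low-affinity hexose transporter, read 1302, 1186 and 1897 against 3260, 3035 and 3167 (difference 1.13, SE 0.16, adjusted p = 0.00413). Every NBRC2018 signal of both genes was above every NBRC1958 signal. HXT5, a transporter made in slow-growing cells, was lower in NBRC2018 at -1.13 (SE 0.14, adjusted p = 0.00265). The wider lists did not move one way. Of 10 tested genes of hexose transport and glucose sensing 1 was higher (10%) and 2 were lower (20%), with a median of -0.02. Over all genes tested the shares were 16.3% and 11.5%. The lower genes were HXT5 and HXT7 (adjusted p = 0.0241), and HXT7 lost the call when either strain at 0 or at 60 g/L was left out. Of 26 glycolysis and ethanol genes 3 were higher (11.5%) and 4 lower (15.4%), near the shares of all genes, with a median of -0.001. GPM2, a phosphoglycerate mutase relative, was the lowest of those at -1.19 (SE 0.20, adjusted p = 0.00707). When any 1 array of these strains was left out, 1 to 3 were higher and 1 to 4 lower.

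**Figure D3:**
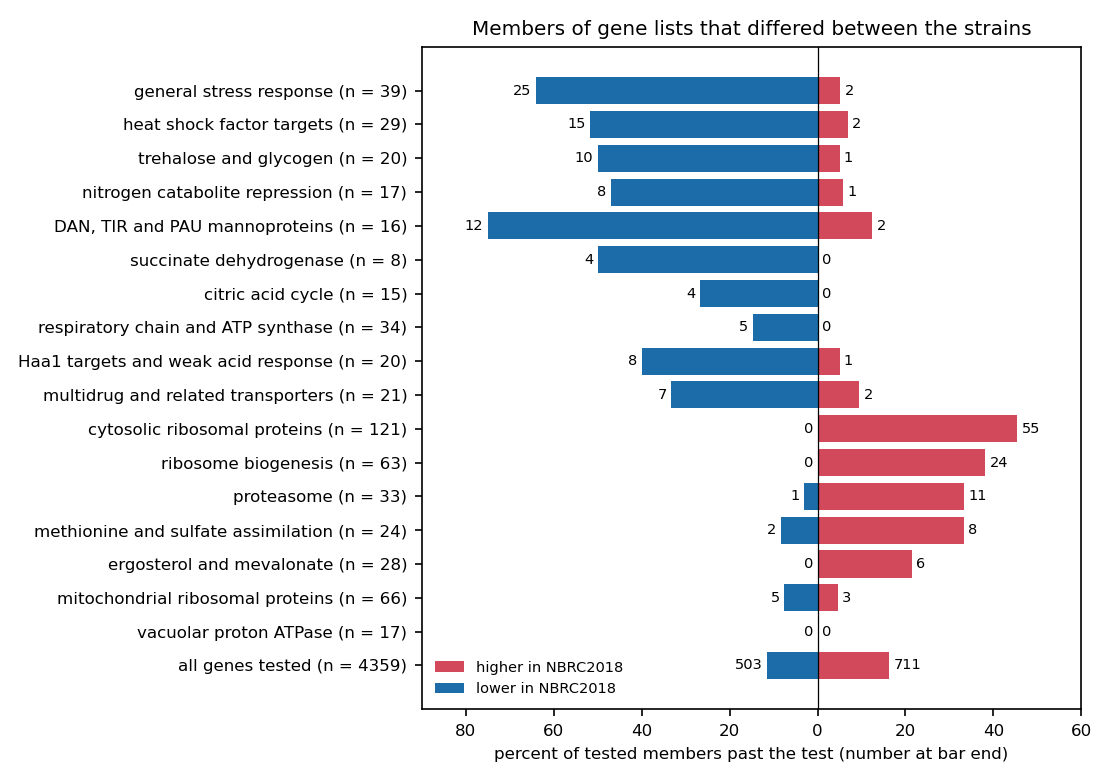
Percent of tested members of 17 gene lists, and of all genes tested, that were higher (red, to the right) or lower (blue, to the left) in NBRC2018; the number of genes stands at each bar end and n is the number tested. General stress genes were 25 lower and 2 higher of 39, cytosolic ribosomal protein genes 55 higher and none lower of 121.

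Ribosomal genes were the largest group on the higher side. Of 121 tested cytosolic ribosomal protein genes 55 were higher in NBRC2018 (45.5%, against 16.3% of all genes tested). None was lower and 66 did not pass. The median difference over the 121 genes was 0.30, and 117 of them had a positive sign. No single gene of the list differed by 2-fold. RPS28B, a small-subunit protein, read 1267, 1817 and 1596 in NBRC1958 and 2566, 2617 and 2702 in NBRC2018 (difference 0.76, SE 0.11, adjusted p = 0.00426). RPS17B read 2188, 2649 and 2578 against 3944, 3724 and 4046 (difference 0.66, SE 0.10, adjusted p = 0.0044). The strains did not overlap for either gene. RPS17B has 2 probe sets, with differences of 0.66 and 0.20, and their mean gave 0.43. The number of these genes past the test rested on single arrays. It was 4 and 6 when NBRC1958 at 0 and at 20 g/L was left out, and 4, 22 and 12 when NBRC2018 at 0, 20 and 60 g/L was. It was 17 with no dose term, 32 from the 6 arrays alone and 87 with an intensity trend in the fit. Many of these genes have near-identical paralogs, and a probe set may read both copies.

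Ribosome biogenesis genes encode the factors that process ribosomal RNA and assemble subunits. Of 63 tested 24 were higher (38.1%, against 16.3% of all genes tested) and none was lower. Of the 63, 58 had a positive sign, and the median was 0.38. DBP3, an RNA helicase of this pathway, read 574, 617 and 565 in NBRC1958 and 1059, 956 and 786 in NBRC2018 (difference 0.65, SE 0.11, adjusted p = 0.00725). SYO1, which carries ribosomal proteins into the nucleus, was among the 15 genes most raised in NBRC2018. It read 140, 161 and 202 against 422, 411 and 396 (difference 1.23, SE 0.16, adjusted p = 0.00338). Leaving out either strain at 0 g/L, or NBRC1958 at 20 g/L, left 1 gene of this list past the test, and leaving out NBRC2018 at 20 or at 60 g/L left 12 and 7. With no dose term 7 passed, and with median centring 14. Mitochondrial ribosomal protein genes gave few calls. Of 66 tested, 3 were higher (4.5%, against 16.3% of all genes tested) and 5 lower (7.6%, against 11.5%), with a median of -0.02.

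The proteasome degrades tagged proteins. Of its 33 tested genes 11 were higher in NBRC2018 (33.3%, against 16.3% of all genes tested). Another 1 was lower (3.0%, against 11.5%), and the median was 0.25. PRE1, a core subunit, read 1171, 1096 and 651 in NBRC1958 and 1559, 1668 and 1230 in NBRC2018 (difference 0.64, SE 0.12, adjusted p = 0.00893). PRE10 and PRE9, also core subunits, differed by 0.50 (SE 0.09, adjusted p = 0.0088) and 0.44 (SE 0.08, adjusted p = 0.0101). The lower gene was RPN4, the transcription factor that activates proteasome genes. RPN4 read 1189, 995 and 2135 against 656, 705 and 1032 (difference -0.79, SE 0.12, adjusted p = 0.00508). Of the subunit genes, 3 to 6 passed when any 1 array of these strains was left out, the fewest for NBRC1958 at 0 or 20 g/L and NBRC2018 at 20 g/L. With no dose term 1 passed, and from the 6 arrays alone 7.

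Sulfate assimilation reduces sulfate to sulfide for methionine and cysteine. Of 24 tested genes of sulfate and methionine metabolism 8 were higher in NBRC2018 (33.3%, against 16.3% of all genes tested). Another 2 were lower (8.3%, against 11.5%), and the median was 0.27. MET16, which reduces activated sulfate, read 198, 154 and 130 in NBRC1958 and 430, 514 and 286 in NBRC2018 (difference 1.25, SE 0.14, adjusted p = 0.00224). MET14, the kinase of the preceding step, read 700, 378 and 315 against 1054, 1452 and 719 (difference 1.21, SE 0.22, adjusted p = 0.00896). In both genes the NBRC2018 signal was highest at 20 g/L, and all its signals lay above those of NBRC1958.

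The steps before and after showed the same direction. MET3, ATP sulfurylase, read 999, 404 and 241 in NBRC1958 and 1464, 2062 and 453 in NBRC2018 (difference 1.24, SE 0.30, adjusted p = 0.0205), and lost the call when either strain at 20 g/L was left out (adjusted p = 0.0591 and 0.0546). MET5, a sulfite reductase subunit, differed by 1.15 (SE 0.19, adjusted p = 0.00703), and SUL2, a sulfate importer, by 1.04 (SE 0.16, adjusted p = 0.00591). SAM3, the importer of S-adenosylmethionine, was lower at -1.17 (SE 0.14, adjusted p = 0.00259), as was MET13, a folate reductase, at -0.72 (SE 0.14, adjusted p = 0.0112). MET13 lost the call when either strain at 0 g/L or NBRC1958 at 20 g/L was left out. When NBRC1958 at 20 g/L was left out, 5 genes of the list were higher, and with no dose term 3. MHT1 and MMP1, neighbours on chromosome XII, encode the enzyme and the importer for S-methylmethionine. Their differences were 1.35 (SE 0.19, adjusted p = 0.0044) and 1.05 (SE 0.21, adjusted p = 0.0113), the latter losing its call when NBRC1958 at 20 g/L was left out (adjusted p = 0.0546). SSU1, the sulfite exporter, was lower at -1.02 (SE 0.16, adjusted p = 0.00544).

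Nitrogen catabolite repression turns off genes for poor nitrogen sources in rich medium. Of 17 tested genes in the list for it, 8 were lower in NBRC2018 (47.1%, against 11.5% of all genes tested). Another 1 was higher (5.9%, against 16.3%), and the median was -0.55. DAL7, a malate synthase of allantoin use, read 557, 342 and 703 in NBRC1958 and 97.5, 92.7 and 115 in NBRC2018 (difference -2.17, SE 0.25, adjusted p = 0.00224). MEP2, the high-affinity ammonium transporter, read 152, 196 and 368 against 98.6, 94.3 and 90.5 (difference -1.11, SE 0.27, adjusted p = 0.0206). MEP2 signals were higher at higher doses in NBRC1958 and level in NBRC2018, but the difference in slope did not pass the test. Leaving out any NBRC1958 array ended the call for MEP2 (adjusted p = 0.0524 to 0.0751). The gene that was higher was ASP1, cytosolic asparaginase, at 0.68 (SE 0.14, adjusted p = 0.012), which lost the call when either strain at 0 g/L was left out. The count of lower genes was 3 and 2 when NBRC1958 at 0 and at 20 g/L was left out, and 4 when NBRC2018 at 60 g/L was. It was 2 with no dose term and 3 with a filter of the lowest 50% of genes.

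Acid response genes had mostly negative differences, with AQR1 as an exception. AQR1, a plasma membrane exporter that protects against short-chain acids, was higher in NBRC2018. It read 136, 711 and 880 in NBRC1958 and 401, 1087 and 1629 in NBRC2018 at 0, 20 and 60 g/L (difference 0.98, SE 0.15, adjusted p = 0.00584). The signals were higher at each step of dose in both strains, so the ranges overlap although NBRC2018 was higher in all 3 pairs. AQR1 was the only gene of 20 tested Haa1 targets and weak acid genes that was higher. In the same list 8 were lower (40%, against 11.5% of all genes tested) and 16 had a negative sign, with a median of -0.32. SPI1, a cell wall protein of acid tolerance, read 2391, 2236 and 4679 against 795, 1272 and 2148 (difference -1.16, SE 0.18, adjusted p = 0.00541). YGP1, a secreted glycoprotein of stressed cells, differed by -0.92 (SE 0.17, adjusted p = 0.0088). The number lower was 4 when either strain at 0 g/L or NBRC1958 at 20 g/L was left out, and 5 when NBRC2018 at 60 g/L was. It was 1 with no dose term.

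The central regulators and pumps did not pass. HAA1, the transcription factor, differed by -0.15 (SE 0.11, adjusted p = 0.349), and PMA1, the plasma membrane proton pump, by -0.003 (SE 0.08, adjusted p = 0.985). PMA1 signals were 2236, 2455 and 2228 in NBRC1958 and 2277, 2350 and 2275 in NBRC2018. PDR12, the exporter of weak acid anions, read 416, 408 and 848 against 562, 471 and 832 (difference 0.20, SE 0.19, adjusted p = 0.457). Among 21 multidrug and related transporters 7 were lower (33.3%, against 11.5% of all genes tested). The 2 that were higher (9.5%, against 16.3%) were AQR1 and PDR5. PDR5, the main drug exporter of its class, differed by 0.86 (SE 0.25, adjusted p = 0.0377) and did not pass when any of 5 of the 6 arrays was left out, all but the NBRC1958 array at 60 g/L. PDR15, its close relative, was lower at -1.03 (SE 0.19, adjusted p = 0.00856). The count of lower transporters was 4 when NBRC2018 at 0 g/L was left out and 2 with no dose term.

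The osmotic gene STL1 and the formate gene FDH1 were lower in NBRC2018, and the change of their signals with dose was not tested. STL1, the glycerol importer induced by osmotic shock, read 217, 722 and 1560 in NBRC1958 and 25.8, 58.6 and 377 in NBRC2018 (difference -2.60, SE 0.31, adjusted p = 0.00259). FDH1, formate dehydrogenase, read 1343, 794 and 2771 against 43.1, 42.1 and 493 (difference -3.59, SE 0.43, adjusted p = 0.00265). NBRC2018 was lower at every dose, and in both genes its own highest signal was at 60 g/L, on 1 array. Of 18 osmotic and glycerol genes 7 were lower (38.9%, against 11.5% of all genes tested). Another 3 were higher (16.7%), near the 16.3% of all genes tested. The higher genes were GPD2, a glycerol 3-phosphate dehydrogenase, at 0.72 (SE 0.11, adjusted p = 0.00591), the osmosensor SLN1 at 0.64 (SE 0.10, adjusted p = 0.00473), and the sodium exchanger NHA1 at 0.43 (SE 0.09, adjusted p = 0.0124). NHA1 lost the call when either strain at 0 g/L or NBRC2018 at 60 g/L was left out. The lower count was 3 when NBRC1958 at 0 or 20 g/L was left out, 4 when NBRC2018 at 0 or 60 g/L was, and 0 with no dose term in the model.

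The gene most raised in NBRC2018 was PHO3, an acid phosphatase of the cell surface that is known to be repressed by thiamine and acts on thiamine phosphates. PHO3 read 103, 118 and 117 in NBRC1958 and 3441, 3592 and 946 in NBRC2018 (difference 4.16, SE 0.34, adjusted p = 0.000829). In KF7 it read 3219, 3443 and 2226, so NBRC1958 had the lowest signals of the strains. Other thiamine genes differed less. Of 14 tested, 3 were higher (21.4%, against 16.3% of all genes tested) and none lower. The 3 were PHO3, the regulator THI3 at 0.62 (SE 0.12, adjusted p = 0.011) and the kinase THI80 at 0.50 (SE 0.14, adjusted p = 0.0308). THI3 lost the call when either strain at 0 g/L or NBRC1958 at 20 g/L was left out, and THI80 when any array of these strains was. HBN1, a nitroreductase-like protein, had the next largest difference in that direction. HBN1 read 349, 239 and 326 against 1206, 1164 and 1163 (difference 1.91, SE 0.12, adjusted p = 0.000535).

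Some differences were nearly the same at all doses. COS8, a member of a family near chromosome ends, read 99.8, 113 and 102 in NBRC1958 and 271, 304 and 284 in NBRC2018, and its 3 paired differences were 1.31, 1.31 and 1.35. FEX1, a fluoride exporter read by a shared probe set, gave 827, 813 and 846 against 321, 326 and 337, with paired differences of -1.32, -1.28 and -1.29. ATX2, a manganese transporter of the Golgi, gave 171, 180 and 154 against 378, 377 and 335, with paired differences of 1.07, 1.01 and 1.05. FEX1 and ATX2 were chosen after their values were seen, for the small spread of their differences. The adjusted p was 0.000829 for COS8, FEX1 and ATX2. Within the COS family the members differed in direction, since COS12 was higher at 1.08 (SE 0.09, adjusted p = 0.000839) and COS7, read by a shared probe set, was lower at -0.83 (SE 0.11, adjusted p = 0.00401).

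A further 22 genes were read at background on all 3 arrays of 1 strain and above it on all 3 of the other. Their mean log2 signals over the 9 arrays were too low for the level filter, and they were chosen after their values were seen. In NBRC2018 only, 6 of the 5449 measured genes were above background, and in NBRC1958 only, 16. Of these, 4 and 8 were at least 2-fold above the background level, and 5 and 14 passed the test with no level filter. Some crossed the background by little. VTH1 in NBRC1958 at 20 g/L read 14.7445 against a background of 14.7379. UIP3, a membrane protein of the DUP240 family on chromosome I, read 4.12, 4.002 and 4.86 in NBRC1958 and 394, 462 and 516 in NBRC2018. Taken against the background level in place of the dim signal, it was at least 30.8-fold higher in NBRC2018. It read 3.36 to 4.32 in KF7. PHO5, the acid phosphatase repressed by phosphate and the neighbour of PHO3 on chromosome II, read 7.90, 5.73 and 6.18 against 88.4, 86.2 and 174, at least 7.45-fold higher in NBRC2018. YPS5, a yapsin-like protease gene, was at least 3.70-fold higher.

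In the other direction, AIF1, a mitochondrial cell death effector, read 126, 106 and 99.95 in NBRC1958 and 8.01, 7.06 and 8.997 in NBRC2018, at least 7.25-fold higher in NBRC1958. In KF7 AIF1 read 435 to 572. RDS1, a zinc cluster transcription factor, read 88.2, 77.6 and 67.6 against 10.4, 8.64 and 9.14, at least 5.10-fold higher in NBRC1958. ADH7, an alcohol dehydrogenase, was at least 2.08-fold higher in NBRC1958, and PAU3, read by a shared probe set, at least 2.70-fold. PAU3 (YCR104W), ADH7 (YCR105W) and RDS1 (YCR106W) have consecutive systematic names on chromosome III. At background, an absent gene, a sequence the probes do not match and a silent gene cannot be told apart.

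**Figure D4:**
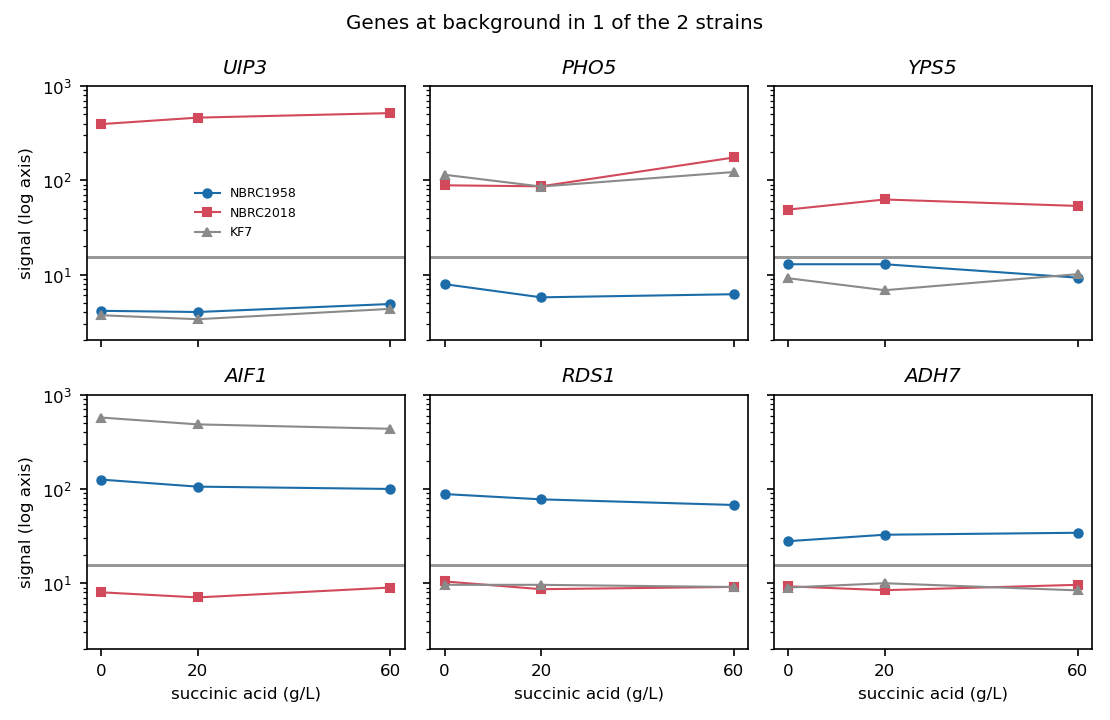
Signal (log axis) of 6 genes against succinic acid (g/L), 1 array per point, in NBRC1958, NBRC2018 and KF7; the grey band is the background of 14.7 to 15.9. UIP3, PHO5 and YPS5 lay below the band in NBRC1958 and above it in NBRC2018, and AIF1, RDS1 and ADH7 the reverse.

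Along the chromosomes, the 10 outermost measured genes of each of 32 arms held more of the large differences. Of 167 tested there, 33.5% passed the test and 10.2% differed by at least 2-fold, against 27.6% and 2.55% of the 4192 other tested genes. The 320 measured genes there held 10 of the 22 genes at background in 1 strain, and the 5129 other measured genes held 12. Median differences by chromosome ran from -0.05 on chromosome VI to 0.12 on chromosome III. No run of 3 or more neighbouring tested genes differed by at least 2-fold, but 9 pairs did. Neighbours here are next to each other among tested genes ordered by systematic name, so other genes may lie between them. The names of FDH1 (YOR388C) and FEX1 (YOR390W), for example, are not consecutive, and FEX1 was read by a shared probe set. Genes removed by the level filter were outside that search. Among them were the neighbours PAU3, ADH7 and RDS1 on chromosome III, each at background on all 3 NBRC2018 arrays. The pairs of tested genes are described next. Among the 9 pairs were FMP45 and HBT1 on chromosome IV, YNL194C and YNL195C on chromosome XIV, SNO4 and ERR3 on chromosome XIII, TIR4 and TIR2 and FDH1 and FEX1 on chromosome XV, and, in the higher direction, MMP1 and MHT1. FMP45, a membrane protein of the cell cortex, differed by -2.60 (SE 0.40, adjusted p = 0.00539), and its relative YNL194C by -2.39 (SE 0.44, adjusted p = 0.00947).

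The strains' responses to dose were compared by fitting a line on dose in each strain. No gene passed for a difference in slope (0.0% of 4359), with a smallest adjusted p of 0.42 in limma, while 463 had an unadjusted p below 0.05. The SE of the slope difference over 60 g/L varied between genes, for example 1.14 for AQR1 and 0.20 for ATX2. Even the slope difference of -2.42 in RGS2, described below, did not pass. The lack of calls therefore does not show that the strains responded alike. HSP12 was among the 5 smallest p-values. Its paired difference went from -2.43 at 0 g/L to -1.43 at 20 and -0.58 at 60 g/L, a slope difference of 1.76 over 60 g/L (SE 0.30, unadjusted p = 0.000789). RGS2, a regulator of G protein signalling, went from 0.84 and 0.90 to -1.40, a slope difference of -2.42 (SE 0.40, unadjusted p = 0.000598). YDJ1, a cytosolic J-domain chaperone, went from 0.81 and 0.53 to -0.27, a slope difference of -1.10 (SE 0.19, unadjusted p = 0.000817). Each of these paired differences rests on 1 array per strain.

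**Figure D5:**
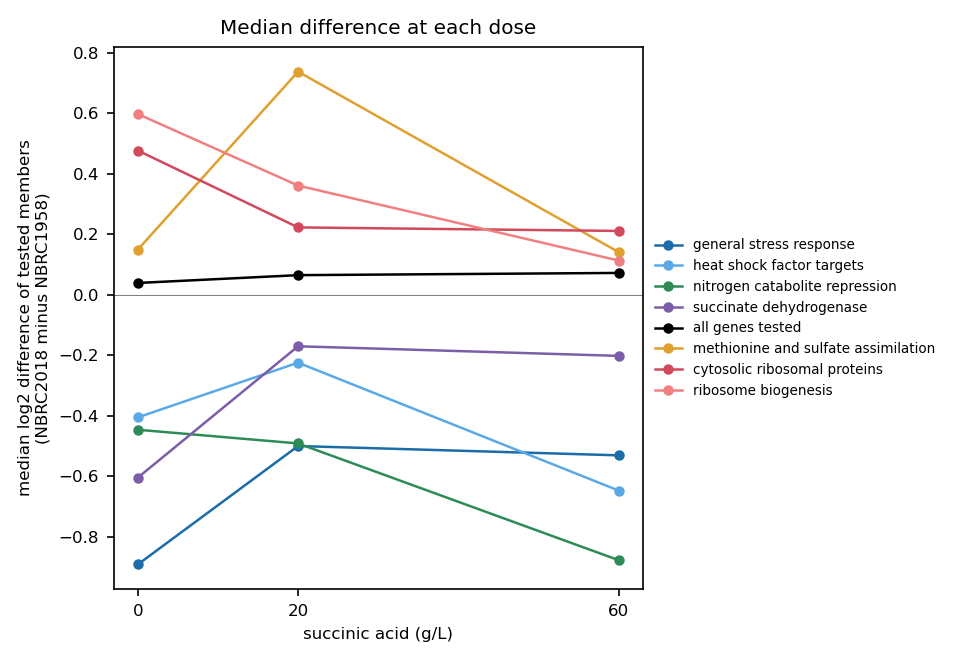
Median log2 difference (NBRC2018 minus NBRC1958) of the tested members of 7 gene lists and of all genes tested, at 0, 20 and 60 g/L succinic acid, 1 pair of arrays per dose. Ribosome biogenesis went from 0.60 to 0.11, general stress from -0.89 to -0.53, and all genes tested stayed between 0.04 and 0.07.

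The medians of gene lists varied with dose, and these differences between doses have no test. Ribosome biogenesis genes had medians of 0.60, 0.36 and 0.11 at 0, 20 and 60 g/L, and cytosolic ribosomal protein genes 0.48, 0.22 and 0.21. General stress genes had medians of -0.89, -0.50 and -0.53. The sulfate and methionine list was highest at 20 g/L, with medians of 0.15, 0.74 and 0.14. The nitrogen catabolite repression list was lowest at 60 g/L, with medians of -0.45, -0.49 and -0.88. Of the 97 genes at least 2-fold lower over all doses, 64 had a smaller difference at 60 than at 0 g/L. Of the 27 genes at least 2-fold higher, 11 did. Both sets were chosen on the mean of these same paired differences. Over all genes tested the standard deviation of the paired differences was 0.54 at 0 and 0.46 at 60 g/L, so the counts do not show a narrowing particular to these genes.

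Comparisons of KF7 with these strains use the same NBRC1958 and NBRC2018 arrays, so its position is given only as counts. Of the 97 genes at least 2-fold lower in NBRC2018, KF7 differed from NBRC1958 alone at 34, from NBRC2018 alone at 37, from both at 16 and from neither at 10. Of the 27 genes at least 2-fold higher, the same counts were 13, 7, 5 and 2. These genes were selected for a large gap between the strains compared, which by itself makes it rare for KF7 to differ from neither. KF7 differed from neither at 173 of all 503 lower genes and at 343 of all 711 higher genes. NCA3 read 112, 125 and 121 in KF7, near NBRC2018, whereas HXK2 read 2118, 2148 and 1710, nearer NBRC1958.

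Several lists gave no gene past the test. None of 10 histone genes, 17 vacuolar proton ATPase genes or 17 autophagy genes passed, and a p above the threshold does not show that the strains were alike there. Mating genes were dim in both strains. The summed signal of 6 a-specific genes was 281 to 323 in NBRC1958 and 281 to 297 in NBRC2018. That of 11 haploid-specific genes was 409 to 435 and 373 to 411. For 4 alpha-specific genes it was 136 to 157 and 152 to 169, with 2 of the 4 at or below background in each strain. None of these genes was bright enough to be tested. Maltose and sucrose genes also gave no call, and SUC2, invertase, differed by -0.05 (SE 0.32, adjusted p = 0.922).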

How the data were processed

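Yeast RNA was hybridized to 9 single-colour arrays, 1 for each strain and dose. Per the labels' protocols, cells were grown at 35 °C, and total RNA was extracted with Trizol and labelled with biotin. The deposited values are linear intensity values that the authors had already normalized and summarized, 1 per probe set, by steps not given in the sources used. The table had 10928 probe sets, of which 5498 were paired with 1 S. cerevisiae gene in a 2016 annotation, standing for 5449 genes. For a gene with several probe sets the brightest was used.

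Signals were analysed as log2(value + 16). The lowest 20% of genes by mean log2(value + 16) over the 9 arrays were left out. Linear models with strain and dose as additive factors were fitted to all 9 arrays in limma 3.58.1 under R 4.3.3 (lmFit, eBayes, 4 residual degrees of freedom), and lines on dose per strain gave the slopes (3 residual degrees of freedom). P-values were adjusted by Benjamini-Hochberg over 4359 genes. The replicate number of the samples is the dose, so same-numbered arrays are paired by dose. The number of arrays limits the precision. Scripts were tested on simulated data.

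The comparison and the 49 gene lists were chosen with earlier results of these data known. Named genes were the 15 largest differences each way, up to 4 genes past the test in each list, a set of acid, flocculation and mating genes, and the 5 smallest slope p-values. HSP104, HSP78, FEX1, ATX2, SUL2, genes named from counts of 5 or fewer, and genes at background in 1 strain were chosen after their values were seen. Alternatives were other scalings, filters, offsets and probe set rules, the 6 arrays alone, no dose term, and each array left out.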

Additional observations from a re-analysis of the deposited data

Results flagged for a closer look

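The array holds 3470 probe sets that the annotation used here does not name, and 314 of them read above the other-organism background on all 9 arrays, which is why they are listed here. None of the unnamed probe sets was at least 2-fold higher in NBRC2018 at every dose, and 4 were at least 2-fold lower at every dose. Among the 5449 named genes, the corresponding counts were 15 and 70. No strain or dose group was large enough for a test of single outlying arrays.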

How the results depend on the processing

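With no replicate block, that is with dose left out of the model, 406 genes passed in place of 1214, of which 231 were higher in place of 711 and 175 lower in place of 503. Leaving out 1 array at a time gave 395 to 1301 genes in all, 191 to 748 higher and 196 to 588 lower. The other settings gave 821 genes with a filter of the lowest 50% to 1441 with no filter, and 1055 from the 6 arrays alone. Median centring split the calls into 578 higher and 539 lower. At least 2-fold, 15 genes were higher and 61 lower with the filter of the lowest 50%, 16 higher with an offset of 64, and 17 higher and 51 lower with no replicate block. The slope comparison gave 0 genes in every setting run.

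Of 187 named genes past the test, 63 kept the call in every alternative run for them (20 to 22 a gene, since a filter can remove a gene), 100 lost it with no replicate block, 24 lost it only when an array was left out, and none reversed. Of 2156 list counts recomputed, 392 moved by over 1.5 times. The dose pairs serve as the only replicates, so strain differences that change with dose count as error.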
